A study of Mus musculus with 12 samples.

Results

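The genes described here are 8 members of the CC chemokine system, measured in mouse pancreas tumours. They are the ligands Ccl2, Ccl5, Ccl6, Ccl7, Ccl11 and Ccl20 and the receptors Ccr1 and Ccr2. Members were taken by name, not by their values. For each, the probe set that the platform annotation gives to exactly 1 symbol was used. All 8 were measured, among 30142 genes in all. Expression was profiled with 1 one-colour array per tumour in 12 tumours, 3 in each of 4 groups, and per the series text each tumour came from a separate mouse. All animals carried the PKT genotype, a genetic model of pancreatic ductal adenocarcinoma. The FAP-TK control and FAP depleted groups belong to a line in which cells that express fibroblast activation protein (FAP) can be removed. The aSMA-TK control and aSMA depleted groups belong to the matching line for alpha smooth muscle actin (aSMA). TK, thymidine kinase, makes cells sensitive to ganciclovir. The labels give ganciclovir at 50 ug per kg for every sample and call the controls animals with no depletion, so what the controls received is not clear from them. They state neither age nor strain, and name no promoter that drives the thymidine kinase.

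CC chemokines are small secreted proteins that carry a pair of adjacent cysteines near the amino end, and they guide white blood cells through G protein-coupled receptors. CCL2 and CCL7 act through CCR2, which brings monocytes from blood into tissue. CCL5, CCL7 and mouse CCL6 can signal through CCR1, a receptor of monocytes, macrophages and neutrophils, while CCL11 (eotaxin) attracts eosinophils through CCR3, and CCL20 attracts cells that carry CCR6. In pancreatic tumours, tumour cells, fibroblasts and macrophages are all known sources of CC chemokines.

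Of the 8 genes, 0 passed the test between depleted and control tumours of either line, between the control groups of the lines, or in the difference between the depletion effects. The tests were limma's moderated tests with Benjamini-Hochberg adjustment over all 30142 genes, called at an adjusted p under 0.05. limma called 7.8% of all genes between the control groups and 0% in each of the other comparisons. Within groups, the standard deviation of Ccl6 exceeded that of 99.8% of all genes, that of Ccl11 99.4%, and that of Ccr1 98.3%. Ccl6 and Ccr1 tended to be high or low in the same tumours, and so did the adjacent ligand genes Ccl2, Ccl7 and Ccl11, though these correlations did not pass when permuted within groups.

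The levels are log2 values after quantile normalization, and because a probe set's level depends on its probes, levels are not compared between genes. Arrays of the FAP line had a higher background. Their negative-control probe sets had medians from 5.46 to 6.49 on the deposited log2 scale, against 4.46 to 4.88 in the aSMA line. FAP-TK control replicates 1 and 3 and FAP depleted replicate 2 had the least separation between positive- and negative-control probe sets, 2.97, 2.99 and 2.69, against 4.32 to 4.89 on the other 9 arrays. Ccl6 was above the 95th percentile of the negative controls on 10 arrays and Ccl11 on 2, and each of the other 6 genes on 0. Ccl5, Ccl20 and Ccl7 were above even the median of the negative controls on only 5, 4 and 3 of 12 arrays. Values of those genes are therefore close to background. As a check of the labels, Fap was lower in FAP depleted tumours than in their controls, with a difference of -1.11 ± 0.37 (SE, n = 3 per group) and no overlap of the groups (exact permutation p = 0.1, adjusted p by limma 1.00). In this comparison 8.1% of all genes did not overlap, and Fap was above the 95th percentile of the negative controls on 0 arrays. Acta2, which encodes aSMA, was higher by 1.68 ± 1.71 in the tumours labelled aSMA depleted (adjusted p by limma 0.949). Its values there were 10.13, 13.86 and 15.28, against 12.26, 10.85 and 11.12 in the controls, so replicate 1 was below all controls and the other replicates above them. The mean thus ran opposite to the label, and these are called the tumours labelled aSMA depleted.

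In RefSeq's annotation of GRCm38.p6, Ccl2, Ccl7 and Ccl11 lie next to each other on chromosome 11. Ccl5 and Ccl6 lie in another group of ligand genes on the same chromosome, with Ccl9 between them. Ccr1 and Ccr2 lie on chromosome 9 with Ccr3, and Ccl20 is on chromosome 1. Promoter sequences are shown for Ccl6 and Ccr1, whose deviations from the group means were the most closely correlated of all pairs. Each is the 250 bases before the RefSeq transcription start, on the gene's own strand (minus for both), at chr11:83593088-83593337 for Ccl6 and chr9:123968693-123968942 for Ccr1, build GRCm38.p6. Capitals mark, on either strand, the ETS core letters AGGAAG, the kind of site that the myeloid factor PU.1 binds, or a related core spelled GAGGAA.
Ccl6: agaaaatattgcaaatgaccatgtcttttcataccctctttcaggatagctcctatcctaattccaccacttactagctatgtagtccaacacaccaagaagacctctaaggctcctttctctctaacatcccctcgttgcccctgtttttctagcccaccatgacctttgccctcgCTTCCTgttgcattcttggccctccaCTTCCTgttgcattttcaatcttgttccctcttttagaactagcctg
Ccr1: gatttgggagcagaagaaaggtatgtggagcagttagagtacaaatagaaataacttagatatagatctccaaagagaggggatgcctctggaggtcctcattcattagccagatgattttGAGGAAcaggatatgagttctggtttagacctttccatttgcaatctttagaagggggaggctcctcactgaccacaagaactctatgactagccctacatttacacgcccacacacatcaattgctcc
In Ccl6 the letters cttcctgttgcatt occur in 2 copies, which begin 73 and 47 bases before the start, and each copy opens with AGGAAG read on the other strand. A repeat of 14 or more bases was present in 3.28% of the 32841 RefSeq promoter windows of this length. The Ccr1 window held 1 GAGGAA, which begins 129 bases before the start, and the other core was absent there. The core in Ccl6 was present in 29.5% of all windows and that in Ccr1 in 23.3%, so neither is rare. Of the other motifs searched on both strands, the NF-kB pattern of GGGA, any 4 bases and CC was found in Ccr1 and not in Ccl6, and occurred in 17.6% of all windows. TTNNGNAA (C/EBP) was found in Ccr1, where it overlaps GAGGAA, and not in Ccl6, and occurred in 36.9%. TGANTCA (AP-1) was in neither window and occurred in 6.75%. These matches describe the letters only, and the core in Ccl6 was added to the search after the sequences had been seen.

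Among the ligands that call monocytes, Ccl2 measured 5.42, 6.13 and 6.44 in FAP-TK controls against 5.85, 5.03 and 5.77 after FAP depletion. In the aSMA line it stood at 6.76, 6.11 and 6.17 in the controls and, in tumours labelled aSMA depleted, at 5.28, 8.19 and 6.97. The last group thus held both the highest Ccl2 value, in replicate 2, and, in replicate 1, a value below all but that of FAP depleted replicate 2. The Ccl2 difference was -0.45 ± 0.62 (SE) in the FAP line and 0.47 ± 0.62 in the aSMA line, with adjusted p by limma of 1.00 and 0.957. The difference in the aSMA line turned to -0.22 without replicate 2 of the tumours labelled aSMA depleted and was 1.24 without replicate 1.

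Ccl7, encoded next to Ccl2 and a ligand of the same receptor, stood at 3.97, 5.51 and 5.25 in the FAP-TK controls and at 4.32, 3.44 and 4.08 after FAP depletion. Values in the aSMA line were 4.66, 4.34 and 4.39 in controls against 3.63, 7.31 and 5.24 in tumours labelled aSMA depleted. The same replicate 2 was highest and the depleted groups overlapped their controls in both lines. Ccl7 differed by -0.96 ± 0.77 in the FAP line (95% interval -2.69 to 0.77) and by 0.93 ± 0.77 in the aSMA line (-0.80 to 2.66), neither past the test (adjusted p by limma 1.00 and 0.944). Without that replicate 2 the aSMA difference was -0.03, and without replicate 1 of the same group 1.81.

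Ccl11, the eosinophil attractant, was the most spread of the 8 genes, over 6.63 log2 units. It stood at 6.60, 8.42 and 6.43 in the FAP-TK controls, at 8.40, 5.70 and 6.72 after FAP depletion and at 7.72, 7.60 and 6.95 in the aSMA-TK controls. The tumours labelled aSMA depleted were at 6.78, 12.33 and 9.67. Of these, 2 lay above every other tumour and the first lay below all 3 of its controls. The difference of 2.17 ± 1.23 in the aSMA line was the largest of any member in either depletion comparison and did not pass (adjusted p by limma 0.944, exact permutation p = 0.4), with a 95% interval from -0.58 to 4.92. It was 0.80 without replicate 2 and 3.58 without replicate 1 of the tumours labelled aSMA depleted. In the FAP line Ccl11 differed by -0.21 ± 1.23 and turned to 0.43 without FAP-TK control replicate 2 or 0.41 without FAP depleted replicate 2. Markers of eosinophils stayed low throughout, with a mean over the 5 markers between 3.78 and 4.51 on every array and 0 of them above background on 6 or more arrays. The 11 fibroblast markers, 5 of them above background on at least 6 arrays, averaged 9.03, 9.37 and 10.15 in the tumours labelled aSMA depleted, above the 8.18 to 8.92 of their controls, and the 8 smooth muscle and pericyte markers (2 above background) 7.05, 8.50 and 8.68. The tumour low in Ccl11, Ccl2 and Ccl7 was thus the lowest of its group in both marker means. Single markers, named after their values were seen, went both ways in that tumour. Col1a1 (12.01) and Acta2 (10.13) were the lowest of the group, and Dcn (13.14), Lum (9.04) and Rgs5 (10.93) the highest. The same tumour was also the lowest in the mean of 9 acinar markers, at 6.26, against 11.43 and 13.78 in the rest of its group and 9.63 to 11.35 in the controls. In tumour tissue, fewer cells of a type and less RNA per cell cannot be told apart, and the part of these markers in the Ccl11 values was not tested.

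**Figure D1:**
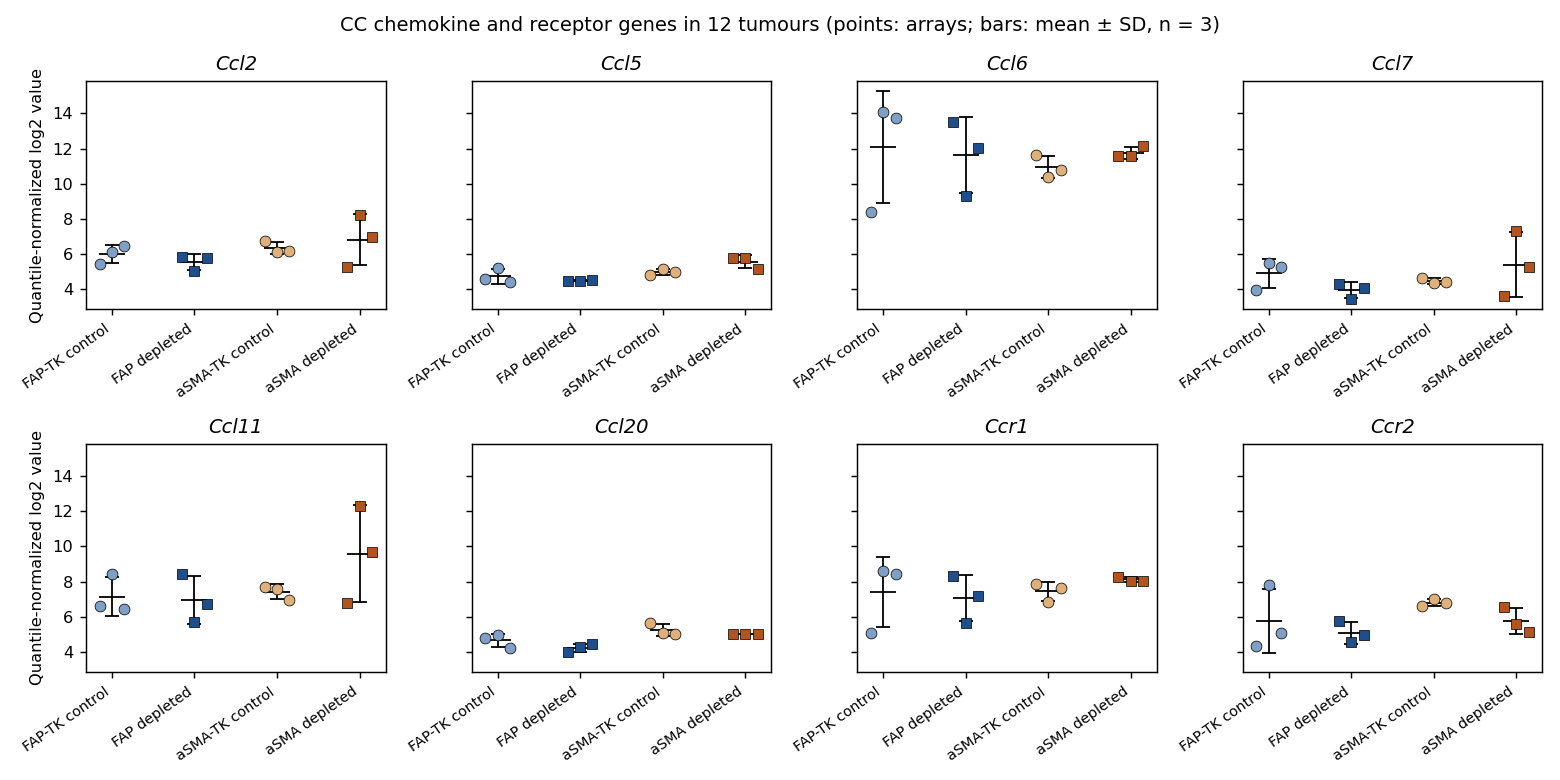
Quantile-normalized log2 values (vertical axis) of the 8 genes in the 4 groups; each point is 1 array, the horizontal tick is the group mean and the bar the SD (n = 3). Ccl6 and Ccr1 have 1 low tumour in each group of the FAP line, and Ccl11 and Ccl7 are widest in the tumours labelled aSMA depleted.

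Ccl6, a ligand made in mice mainly by myeloid cells, was the only member above background on most arrays. Its levels were 8.42, 14.06 and 13.76 in FAP-TK controls against 13.53, 9.28 and 12.06 after FAP depletion. The aSMA line was tighter, at 11.62, 10.40 and 10.76 in controls against 11.60, 11.55 and 12.15 in tumours labelled aSMA depleted. FAP-TK control replicate 1 and FAP depleted replicate 2 lay below all other tumours, and the other FAP depleted tumours, at 13.53 and 12.06, lay below the other controls. Ccl6 differed by -0.46 ± 1.45 in the FAP line (adjusted p by limma 1.00) and by 0.84 ± 1.45 in the aSMA line (adjusted p by limma 0.964). The SE is the same because the 4 groups share 1 spread in the fit. Group SDs of Ccl6 were 3.18 (controls) and 2.16 in the FAP line, against 0.63 (controls) and 0.33 in the aSMA line. The FAP value ran from -2.29 without FAP-TK control replicate 1 to 0.71 without FAP depleted replicate 2, so its direction rested on single tumours.

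The receptor gene Ccr1 had the same shape. It was at 5.10, 8.61 and 8.46 in the FAP-TK controls, at 8.31, 5.67 and 7.19 after FAP depletion, at 7.89, 6.83 and 7.62 in the aSMA-TK controls and then at 8.28, 8.05 and 8.03 in those labelled aSMA depleted. All 3 tumours labelled aSMA depleted were above their controls, by 0.68 ± 0.91, and the two-sided exact permutation p was 0.1, below which groups of 3 cannot go (adjusted p by limma 0.957). This SE too comes from the spread shared by all groups. The SDs of Ccr1 were 1.99 (controls) and 1.32 in the FAP line, against 0.55 (controls) and 0.14 in the aSMA line. Groups of the aSMA line did not overlap for 12.5% of all genes, and for 3 of the 8 members, Ccr1 higher and Ccl20 and Ccr2 lower. In the FAP line the Ccr1 difference was -0.33 ± 0.91, and it ran from -1.48 without FAP-TK control replicate 1 to 0.36 without FAP depleted replicate 2.

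The arrays low in Ccl6 and Ccr1 were also low in macrophage genes and in other marker lists. The mean over 15 monocyte and macrophage markers, 7 of them above background on at least 6 arrays, was 7.35 in FAP-TK control replicate 1 and 7.30 in FAP depleted replicate 2, against 8.81 to 10.46 on the other 10 arrays. The same arrays had the lowest means of neutrophil markers (5.51 and 5.48), smooth muscle and pericyte markers (5.97 and 5.84) and fibroblast markers (8.16 and 7.03). The next lowest means were 6.13, 7.00 and 8.18, so the fibroblast mean of FAP-TK control replicate 1 hardly stood apart. Its endothelial mean, 5.99, was above the 5.11 of FAP-TK control replicate 3, which also had the lowest epithelial mean, 13.45. Both had low control-probe separation, as had FAP-TK control replicate 3, whose macrophage marker mean was 10.00 and Ccl6 value 13.76. In the aSMA line the marker means of the tumours labelled aSMA depleted, 9.88 to 10.10, were all above the 8.81 to 9.72 of their controls, as Ccr1 was. The part of separation and of these cell types in the Ccl6 and Ccr1 values was not tested.

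**Figure D2:**
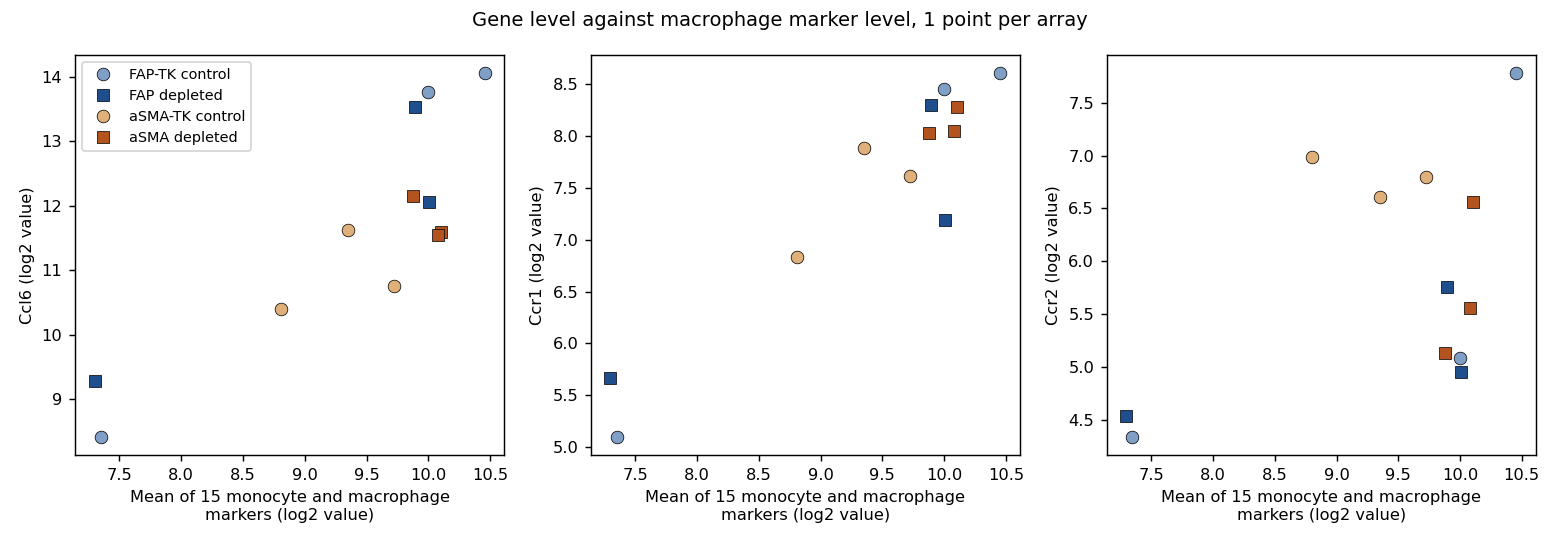
Log2 values of Ccl6, Ccr1 and Ccr2 (vertical axes) against the mean log2 value of 15 monocyte and macrophage markers (horizontal axes), 1 point per array, coloured by group. FAP-TK control replicate 1 (7.35) and FAP depleted replicate 2 (7.30) stand apart at low marker level and low Ccl6 and Ccr1, while Ccr2 ranges widely among arrays of high marker level.

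Ccr2, the receptor of inflammatory monocytes, followed another order. Its values were 4.34, 7.78 and 5.09 in the FAP-TK controls and 5.76, 4.54 and 4.95 after FAP depletion, which overlap. In the aSMA line all 3 controls, at 6.61, 6.99 and 6.80, lay above the tumours labelled aSMA depleted, at 6.56, 5.56 and 5.13, the nearest pair only 0.05 apart. This difference of -1.05 ± 0.77 (95% interval -2.76 to 0.67) did not pass (adjusted p by limma 0.944, exact permutation p = 0.1). In that line, then, the point estimates of Ccr2 and of its ligand genes Ccl2 and Ccl7 had opposite signs, with intervals that all include 0. The FAP line differed by -0.65 ± 0.77 in Ccr2, or by 0.37 without FAP-TK control replicate 2, the tumour at 7.78.

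Ccl5, which attracts T cells and monocytes, was near background. It stood at 4.59, 5.18 and 4.39 in the FAP-TK controls and at 4.47, 4.44 and 4.52 after depletion. The aSMA-TK controls were at 4.80, 5.16 and 4.96 and the tumours labelled aSMA depleted at 5.79, 5.76 and 5.13. Of these, 2 were the highest of the 12, and the third lay just below the highest control. The difference in the aSMA line was 0.58 ± 0.23 (unadjusted p by limma 0.0284, adjusted p 0.944), where 4.81% of all genes had an unadjusted p under 0.05, and in the FAP line it was -0.24 ± 0.23, or -0.0132 without FAP-TK control replicate 2, the control at 5.18. The means of 12 T and NK cell markers ran from 3.81 to 4.66, the highest in replicate 1 of the tumours labelled aSMA depleted, where Ccl5 was highest too, and 0 of these markers were above background on 6 or more arrays. That array also had the highest mean of 7 measured B cell markers, 4.94 against 3.79 to 4.25 on the other arrays, and of 5 lymph node stroma markers, 7.25 against 4.67 to 6.68. Of the B cell and of the stroma markers, 0 were above background on 6 or more arrays. The 5 stroma markers there were Cxcl13 at 14.13, Glycam1 at 8.48, Madcam1 at 4.93, Ccl19 at 4.51 and Cr2 at 4.19. In replicate 2 of the same group Cxcl13 was 15.44. It was also high, at 14.39, in FAP-TK control replicate 3, where Ccl5, at 4.39, was the lowest of the 12. The part of these marker lists in the Ccl5 value was not tested.

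Ccl20, an attractant of lymphocytes and dendritic cells, varied least within groups. It read 4.77, 4.95 and 4.24 in FAP-TK controls against 3.96, 4.28 and 4.42 after depletion, a difference of -0.43 ± 0.21 that did not pass (adjusted p by limma 1.00). The aSMA-TK controls stood at 5.63, 5.09 and 5.04 and the tumours labelled aSMA depleted at 5.00, 4.99 and 5.00. The latter lay just below all controls, with a difference of -0.26 ± 0.21 (exact permutation p = 0.1, adjusted p by limma 0.944).

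**Figure D3:**
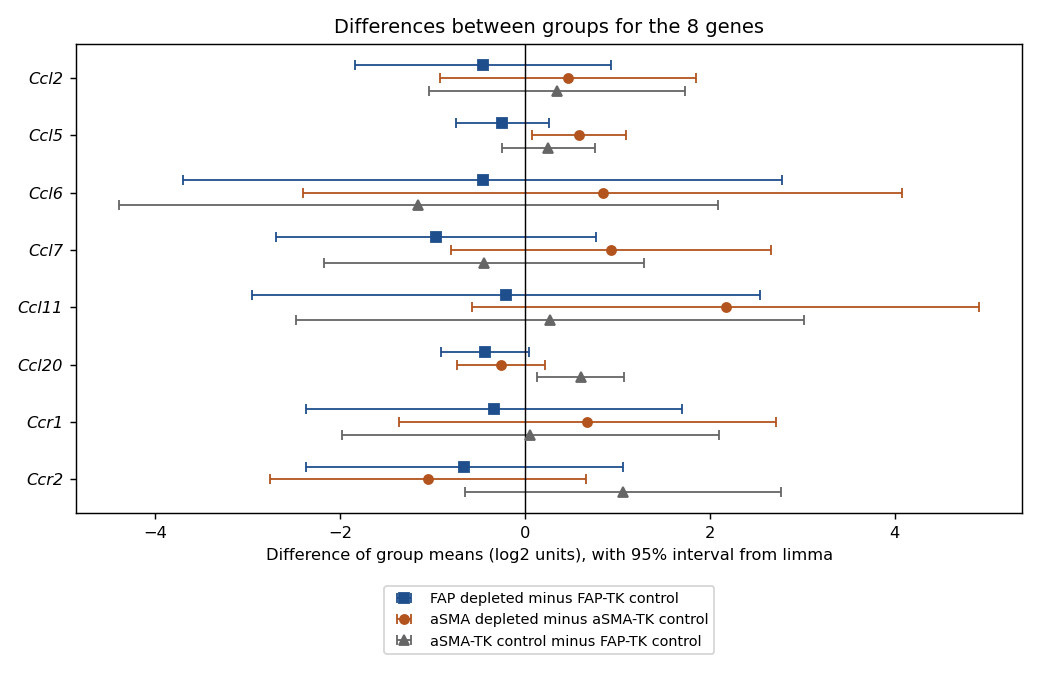
Differences of group means in log2 units (horizontal axis) for the 8 genes, with 95% intervals from limma; squares are FAP depleted minus FAP-TK control, circles aSMA depleted minus aSMA-TK control, triangles aSMA-TK control minus FAP-TK control. Intervals include 0 except for Ccl5 in the aSMA line and Ccl20 between the controls, and none of the differences shown passes after adjustment.

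Over the members together, 8 of 8 point estimates were lower in FAP depleted tumours, with a median of -0.44, while the median over all genes was 0.04 and 59.9% of them were higher. The groups overlapped for every member, against 8.1% of all genes that did not overlap. An unadjusted p under 0.05 was reached by 0 members and 3.71% of all genes there. In the aSMA line 6 of 8 were higher, with a median of 0.63 against 0.01 over all genes, of which 53.2% were higher. Marker lists moved too. In the FAP line 10 of 11 fibroblast markers (median -0.57) and 11 of 15 macrophage markers (median -0.37) had lower point estimates, and 10 of 10 ductal and tumour epithelial (median 0.89) and 9 of 9 acinar markers (median 1.92) higher ones. In the aSMA line 11 of 11 fibroblast markers (median 0.51) and 13 of 15 macrophage markers (median 0.56) had higher ones. None of these passed, and their part in the members' differences was not tested. The members share the same few tumours and several vary together, so these counts are not independent pieces of evidence. Tested as the difference between the effects, 7 of 8 members were higher in the aSMA line, with a median of 0.96 against -0.03 over all genes, of which 46.4% were higher, and 0 passed, as for all genes (0% called). The largest was Ccl11 at 2.38 ± 1.74 and the smallest unadjusted p was that of Ccl5 (0.826 ± 0.320, unadjusted p by limma 0.0280, adjusted p 0.829), where 5.96% of all genes had an unadjusted p under 0.05.

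Between the control groups of the lines, where limma called 7.8% of all genes, 0 of the 8 members passed. Ccl20 came closest, higher in the aSMA-TK controls by 0.60 ± 0.21 (adjusted p by limma 0.104). It alone of the members had an unadjusted p under 0.05, as had 28.2% of all genes. Its groups did not overlap, as was so for 35% of all genes, whereas those of the other 7 members overlapped. The difference went to -0.02 in the values as deposited, where the median of all genes shifted from 0.07 to -0.39 and calls went from 1440 higher and 910 lower to 424 higher and 12019 lower. Ccr2 was 1.06 ± 0.77 higher in the aSMA-TK controls (adjusted p by limma 0.388), and passed only without FAP-TK control replicate 2, at 2.08 (adjusted p by limma 0.0302). Point estimates were higher for 6 of 8 members and for 58.2% of all genes. The remaining 6 members had adjusted p by limma of 0.486 or more, from -1.15 ± 1.45 for Ccl6 to 0.35 ± 0.62 for Ccl2. Differences between lines cannot be told apart from the difference in array background.

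In order of group means, Ccl2, Ccl5 and Ccl11 ran from FAP depleted through FAP-TK control and aSMA-TK control to the tumours labelled aSMA depleted. For Ccl2 these means were 5.55 ± 0.45 (SD, n = 3), 6.00 ± 0.52, 6.35 ± 0.36 and 6.81 ± 1.46. For Ccl11 they were 6.94 ± 1.37, 7.15 ± 1.10, 7.42 ± 0.41 and 9.59 ± 2.77. For Ccl5 they were 4.48 ± 0.04, 4.72 ± 0.41, 4.98 ± 0.18 and 5.56 ± 0.37. Neighbours in this order differed by less than the larger of their SDs for Ccl2, Ccl11 and the lower 3 groups of Ccl5. Ccl7 ran from 3.95 ± 0.46 in FAP depleted tumours through 4.46 ± 0.17 in the aSMA-TK and 4.91 ± 0.83 in the FAP-TK controls to 5.39 ± 1.85. For Ccr1 the order was FAP depleted (7.05 ± 1.32), FAP-TK control (7.39 ± 1.99), aSMA-TK control (7.45 ± 0.55) and the tumours labelled aSMA depleted (8.12 ± 0.14). Ccl6 was lowest in the aSMA-TK controls (10.93 ± 0.63), then 11.62 ± 2.16, 11.77 ± 0.33 and 12.08 ± 3.18 in FAP depleted, labelled aSMA depleted and FAP-TK control tumours. Ccr2 and Ccl20 were lowest after FAP depletion (5.08 ± 0.62 and 4.22 ± 0.24) and highest in the aSMA-TK controls (6.80 ± 0.19 and 5.25 ± 0.33). These orders are those of the quantile-normalized values, and most changed in the values as deposited. There the control groups changed places for Ccl2, Ccl5, Ccl11, Ccl20 and Ccr1. Other groups did so too, such as FAP-TK control and labelled aSMA depleted tumours for Ccl7, and FAP depleted and labelled aSMA depleted tumours for Ccl6. With median centring the control groups changed places for Ccl2, Ccl11 and Ccr1. An order across the lines cannot be told apart from the difference in array background.

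Whether members vary together among tumours was asked with the group means subtracted, over the 12 arrays and 28 pairs of members, with Benjamini-Hochberg adjustment over the 28. By two-sided permutation of the deviations over the arrays, 5 pairs passed. Those permutations ignore that deviations sum to 0 within a group and so are lenient. With permutation within groups only (1296 arrangements), 0 pairs passed, and the lowest adjusted permutation p was 0.0648. The closest pair was Ccl6 and Ccr1, with r = 0.985 (adjusted permutation p = 0.000280) and rho = 0.916 (adjusted permutation p = 0.00168). Without the 2 arrays farthest from the median of Ccl6, FAP-TK control replicate 1 and FAP depleted replicate 2, r was 0.947. Here and below, values of r without 2 arrays keep the deviations from the group means over all 12 arrays. The left-out arrays still shape those deviations, so a high r does not show that a relation holds without them. Within the lines r was 0.999 in the FAP line and 0.689 in the aSMA line (6 arrays each). A high r in the FAP line was not particular to this pair. There Ccl6 and Ccl7 had 0.990, Ccl7 and Ccr1 0.987, Ccl2 and Ccl6 0.943 and Ccl2 and Ccr1 0.934. In the aSMA line those pairs had 0.017, -0.126, 0.219 and -0.040. Without the arrays of low control-probe separation, and with the group means taken again over the remaining arrays, r of Ccl6 and Ccr1 was 0.845. With group means not subtracted r was 0.899, below the 0.925 of Ccl2 and Ccl7. The within-group permutation gave an adjusted p of 0.0648.

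Ccl2 and Ccl7 had r = 0.961 (adjusted permutation p = 0.000280) and rho = 0.839 (adjusted permutation p = 0.0171), with 0.903 in the FAP line and 0.976 in the aSMA line. Without replicates 1 and 2 of the tumours labelled aSMA depleted r was 0.844, and the within-group adjusted permutation p was 0.0648. Ccl7 and Ccl11 had r = 0.905 (adjusted permutation p = 0.00271) and rho = 0.776 (adjusted permutation p = 0.0290), with r of 0.661 and 0.987 in the FAP and aSMA lines. Ccl2 and Ccl11 had r = 0.863 (adjusted permutation p = 0.00889) and rho = 0.615 (adjusted permutation p = 0.148), with r of 0.497 and 0.978. Without the same replicates 1 and 2 these values of r went to 0.647 and 0.488, so the relation of Ccl2 with Ccl11 rested largely on those tumours. Within groups the adjusted permutation p was 0.205 for both.

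Ccl5 and Ccr2 had r = 0.759 (adjusted permutation p = 0.0230) and rho = 0.783 (adjusted permutation p = 0.0290). In the FAP and aSMA lines r was 0.851 and 0.770, and the within-group adjusted permutation p was 0.223. Leaving out the 2 farthest arrays, FAP-TK control replicate 2 and replicate 3 of the tumours labelled aSMA depleted, gave 0.597. The group means of all 12 arrays were kept, so 0.597 does not show that the relation holds without those arrays. Ccr2 with its ligand gene Ccl2 had r = -0.07 (adjusted permutation p = 0.889) and rho = -0.17 (adjusted permutation p = 0.770). That value pooled 0.470 in the FAP line and -0.756 in the aSMA line, and it was 0.335 without the 2 farthest arrays. Over all 28 pairs the median r was 0.234, with 22 above 0. Over the 12 arrays Ccl20 correlated with no other member beyond 0.269 in size, the value with Ccl5 (adjusted permutation p = 0.796, rho = 0.07). Some of these values pooled opposite signs. With Ccl5, r was 0.736 in the FAP line and -0.351 in the aSMA line, and with Ccl6 -0.324 and 0.831 (6 arrays each).

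**Figure D4:**
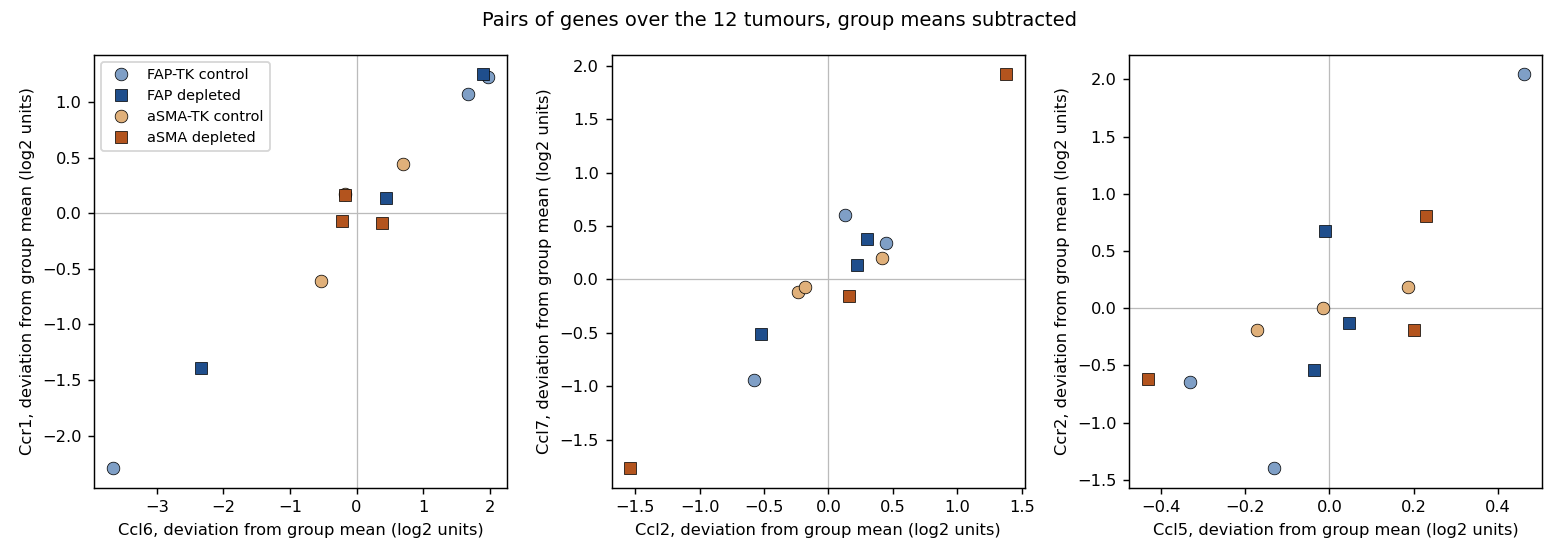
Deviations from the group mean in log2 units for Ccl6 and Ccr1, Ccl2 and Ccl7, and Ccl5 and Ccr2 (horizontal and vertical axes as named), 1 point per array, coloured by group. The points lie closest to a line for Ccl6 and Ccr1 (r = 0.985), and 2 tumours labelled aSMA depleted mark the ends of the Ccl2 and Ccl7 plot.

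Outside the 8 genes, the 2 genes whose deviations were most like each member's were sought among 3926 genes above background on at least 6 arrays. These are the highest of many correlations, over 12 arrays, and are given as a description. Ccl6 was most like Cdk4, a kinase of the cell cycle (r = 0.970), and Ccl9 (r = 0.969), a ligand gene of the same cluster whose product also signals through CCR1. Ccl9 was at 6.73 in FAP-TK control replicate 1 and 6.20 in FAP depleted replicate 2, against 8.16 to 12.82 on the other arrays. Ccr1 was most like Gm7117 (r = 0.981) and Ufsp2 (r = 0.969), and Ccr2 most like Ift22 (r = 0.979) and Gm10704 (r = 0.972). Ccl11 was most like Zbtb22 (r = 0.928) and Il1r1, the interleukin-1 receptor (r = 0.928). Il1r1 was at 11.62 in replicate 2 of the tumours labelled aSMA depleted, the same array on which Ccl11, Ccl2 and Ccl7 were highest. For Ccl2 the genes were Galnt7 (r = 0.935) and Azin1 (r = 0.915), for Ccl7 Gm7327 (r = 0.932) and Gm2016 (r = 0.926), for Ccl5 Dnajc7 (r = 0.896) and Hsd17b11 (r = 0.863), and for Ccl20 Pdcd4 (r = 0.856) and Papss2 (r = 0.742).

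Of the other CC ligand genes, 14 of 15 listed were measured, and of the other receptor genes 10 of 12. In each depletion comparison limma called none of these, and 0% of all genes. In the FAP line 12 of 14 ligand genes and 7 of 10 receptor genes had lower point estimates, with medians of -0.10 and -0.05, and in the aSMA line 11 of 14 and 7 of 10 had higher ones, with medians of 0.13 and 0.08. Only 1 of these ligand genes and 0 of the receptor genes were above background on 6 or more arrays, so most of these signs come from dim values. Ccl28, an epithelial ligand above background on 0 arrays, was lower after FAP depletion, with a difference of -0.52 ± 0.13 and no overlap of the groups (adjusted p by limma 1.00). Ccl1 was also lower there without overlap, at -0.10 ± 0.07, where 8.1% of all genes did not overlap. In the aSMA line Ccl1 was higher without overlap by 0.09 ± 0.07, at values from 3.32 to 3.60 on all arrays. Also in the aSMA line, Ccr10, a receptor for CCL27 and CCL28, was lower, at -0.32 ± 0.12. Ackr1, an atypical receptor of venules that binds many chemokines, was higher, at 0.58 ± 0.22. Both were without overlap, as were 12.5% of all genes, and had adjusted p by limma of 0.944. Ccl1 and Ackr1 were above the negative-control median on 0 arrays. Between the controls limma called 1 of them, Ccr10, higher in the aSMA-TK controls by 0.88 ± 0.12 (adjusted p by limma 0.00659), which is 1 of 10 receptor genes where 7.8% of all genes were called. Ccr10 was above background on 0 arrays and above the negative-control median on 1. Among the ligands, the groups did not overlap for Ccl19 at -0.23 ± 0.12 (adjusted p by limma 0.240) and Ccl25 at -0.29 ± 0.17 (adjusted p by limma 0.291), each above background on 0 arrays. Between the controls 35% of all genes did not overlap.

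Some ligand genes peaked in single tumours, named here after their values were seen. Ccl3, a ligand made by activated myeloid cells, was at 14.02 in aSMA-TK control replicate 1 and at 11.26 in replicate 2 of the tumours labelled aSMA depleted, against 6.03 to 8.79 elsewhere. Ccl4, its partner in the genome, was at 5.94 and 6.18 in the same tumours and at 4.09 or less elsewhere. Ccl8, another CC ligand gene, was at 8.80 in FAP-TK control replicate 2, the tumour of highest Ccl6, Ccr1 and Ccr2, against 3.21 to 6.40 in the others. Neutrophil markers averaged 7.51 and 7.79 in the tumours high in Ccl3 and from 5.48 to 7.84 over all arrays, the highest in replicate 1 of the tumours labelled aSMA depleted, where Ccl3 was 6.09. Of the NF-kB and inflammatory cytokine genes, 14 of 15 were measured and 0 were called in any of the 4 comparisons. Rela, a subunit of NF-kB, was higher without overlap in the tumours labelled aSMA depleted, by 1.15 ± 0.69 (adjusted p by limma 0.944), where 12.5% of all genes did not overlap. Tnf, a cytokine that activates NF-kB, was higher without overlap in the aSMA-TK than in the FAP-TK controls, by 2.09 ± 0.62 (adjusted p by limma 0.0673). Between those controls 35% of all genes did not overlap, and the lines differ in array background. Tnf was above background on 0 arrays. Chosen after its values were seen, the cytokine gene Il6 stood at 9.40 in replicate 2 of the tumours labelled aSMA depleted, the tumour highest in Ccl2, Ccl7 and Ccl11, against 3.35 to 6.01 on the other arrays.

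**Figure D5:**
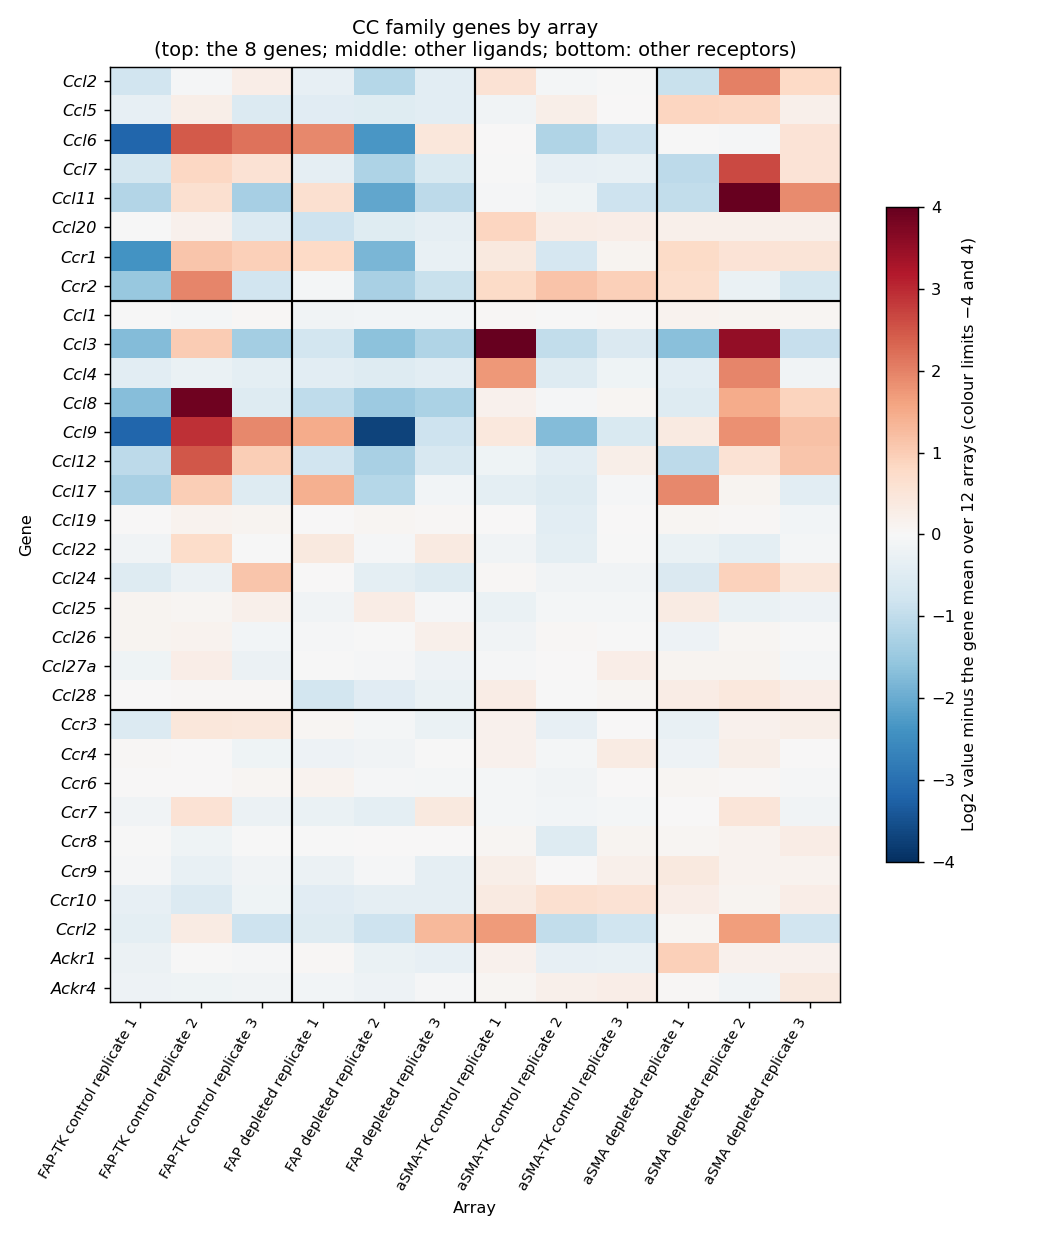
Each CC family gene (rows) on each array (columns), as the log2 value minus the gene's mean over the 12 arrays, with colour limits at -4 and 4; black lines part the 8 genes, other ligands and other receptors, and the 4 groups. Ccl6, Ccl9 and Ccr1 are low together in FAP-TK control replicate 1 and FAP depleted replicate 2, and Ccl2, Ccl7, Ccl11 and Ccl3 are high in replicate 2 of the tumours labelled aSMA depleted.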

How the data were processed

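The deposited file holds log2 values as the authors processed them, 1 column for each of 12 arrays and 72688 probe sets. That they are log2 was read from the values, which run from 1.64 to 19.93. Background correction and any normalization by the authors were not given in the sources used here. Of tools, limma is listed, with no version, in the submitters' processing notes. Because column medians differed between arrays, the 65956 non-control probe sets were quantile normalized. Per the platform annotation, 30604 of 32750 listed probe sets had exactly 1 symbol (827 updated through the RefSeq gene table of GRCm38.p6), 2146 had several, and 33206 were not listed. The highest-mean probe set of each gene was kept, leaving 30142 genes, with none removed as dim. limma 3.58.1 in R 4.3.3 was fitted over all 12 arrays with 1 mean per group, so the groups share 1 spread, and was tested on simulated data. Above background means above the 95th percentile of the 5222 negative-control probe sets of the same array. Differences stay in log2 units. Alternatives covered scaling, dim genes, probe sets, variance model, weights, offset and left-out arrays. Named genes are the 8 members, Fap and Acta2, from the other CC and NF-kB lists the genes called or, where a list had none called in a comparison, at most the 2 of smallest p without overlap of the groups, and the 2 genes most like each member. Marker lists of macrophages, neutrophils, T and NK cells, B cells, eosinophils, dendritic cells, fibroblasts, smooth muscle and pericytes, endothelium, ductal and tumour epithelium, acinar cells and lymph node stroma were described by their mean per array, with no gene named by rule. Ranges over all arrays not given beside a result were 3.94 to 4.55 (dendritic cells), 5.04 to 7.45 (endothelium), 13.45 to 15.51 (ductal epithelium) and 6.26 to 13.78 (acinar cells). Members and lists were chosen with earlier results of these data known. The number of arrays limits every value's precision.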

Additional observations from a re-analysis of the deposited data

Results flagged for a closer look

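The point estimates of Ccl5 differed in direction between the lines, at values close to background. On every array of the FAP line Ccl5 was below the median of the negative controls, with deposited values of 4.67 to 5.40. All 3 FAP depleted tumours lay below the mean of their controls and all 3 tumours labelled aSMA depleted above the mean of theirs. The FAP difference rested on FAP-TK control replicate 2, since without it the value was -0.0132 and the depleted tumours lay between the other controls. The difference between the effects was 0.826 ± 0.320 log2 units and did not pass when adjusted over all genes (adjusted p by limma 0.829). Leaving out single arrays gave 0.595 to 1.04, and adjusted p by limma ran from 0.281 to 1.00 over all alternatives.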

How the results depend on the processing

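Of 32 differences (8 members in 4 comparisons), 19 kept their direction under every setting tried, and 2 values passed under any: Ccl20 between the controls with array weights (0.87, adjusted p by limma 0.0226) and Ccr2 without FAP-TK control replicate 2, given above. Most reversals were between the control groups. There, the values as deposited put Ccl2 at -0.54, Ccl5 at -0.35, Ccl11 at -0.72, Ccl20 at -0.0205 and Ccr1 at -0.83; median centring put Ccl2 at -0.0861, Ccl11 at -0.27 and Ccr1 at -0.38. Array weights put Ccr1 at -0.37, and separation as a covariate put Ccl11 at -0.74, Ccr1 at -1.23 and Ccr2 at -0.078. Without the arrays of low separation, which leaves 1 FAP-TK control, they were Ccl5 at -0.21, Ccl11 at -0.996, Ccr1 at -1.17 and Ccr2 at -0.98, and with an offset of 50 Ccr1 at -0.12. In the FAP line array weights put Ccl11 at 1.03 and Ccr2 at 0.15. In the difference between effects, leaving out the arrays of low separation put Ccr2 at 1.38. The cause was not tested. With 1 array left out at a time, values that changed sign were, in the FAP line, Ccl11 from -0.94 to 0.43, Ccl6 from -2.29 to 0.71, Ccr1 from -1.48 to 0.36 and Ccr2 from -1.35 to 0.37. In the aSMA line they were Ccl2 from -0.22 to 1.24 and Ccl7 from -0.0311 to 1.81, in the difference between effects Ccr2 from -1.42 to 0.31, and between controls Ccl11 from -0.0865 to 0.91 and Ccr1 from -1.09 to 0.67. Genes called between the controls, 2350 as reported, were 12443 as deposited, 5769 with median centring, 0 with dim genes removed (4518 genes tested), 212 with only those groups fitted, 6658 with array weights, 1012 with the covariate, 357 without the arrays of low separation and 1543 with the offset. Leaving out 1 array gave 508 to 3130 there, 0 to 4 in the FAP line, 0 to 16 in the aSMA line and 0 to 1 in the difference. The FAP count was 13 without the arrays of low separation. With all arrays, an unadjusted p by limma was under 0.05 for 1117, 1450 and 1796 genes in those 3 comparisons. Only Ccl6 remained when dim genes were removed. Correlated pairs went from 5 to 0 with permutation within groups, a setting chosen after seeing the data along with levels without group means subtracted. No paired analysis was possible because the labels give no replicate numbers shared between groups. Background limits Ccl5, Ccl7 and Ccl20 most.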
